A study of Mus musculus with 8 samples.

Results

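The 44 genes described here are chromatin regulators and transcription factors whose mutation in people causes neurodevelopmental disorders, including autism and intellectual disability. They were taken as a list of gene symbols, from Chd2 to Rai1. Every symbol matched 1 Ensembl identifier, so 44 of the 53379 genes in the count table are members, and all 44 were among the 16914 genes kept by the filter on low counts. The list holds 6 CHD remodelers and HP1 partners, 6 BAF and PBAF subunits, 11 histone methyltransferases and SET proteins, 2 histone demethylases, 5 genes of acetylation, deacetylation and corepression, 4 genes of DNA methylation, H2A deubiquitination and ubiquitin ligation, 3 genes of Mediator and genome architecture, and 7 transcription factors and other nuclear regulators. Each of the 44 had at least 9 counts in every sample.

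Bulk RNA sequencing was done on the cingulate cortex of male mice without treatment, with 4 wild-type samples (Mvp+/+, called WT) and 4 homozygous knockouts (Mvp-/-, called Mvp KO). The knockout is a gene trap derived from 1 embryonic stem cell clone and kept on a C57BL/6 background: a β-galactosidase and neomycin (β-GEO) cassette with a polyA signal sits in the first intron of Mvp in every cell, so no cell type is targeted. Mvp encodes the major vault protein, and the design asks which transcripts of the male cingulate gyrus change when it is lost. The age of the animals is not given in the sources used here, and the study's methods describe all replicates as biological.

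As background, these genes encode proteins that open, close or mark chromatin. ATP-dependent remodelers of the CHD and BAF families slide or eject nucleosomes, SET-domain enzymes methylate histone H3 at promoters, enhancers and gene bodies, and CREBBP and EP300 acetylate histones. CTCF, Mediator and the transcription factors of the list bring such enzymes to particular genes. Most are dosage-sensitive in people, since loss of a single copy is enough to cause disease, and they are active in developing and in mature neurons.

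The trapped gene was checked first. Mvp (ENSMUSG00000030681) was measured in CPM, counts relative to the library total after scaling by TMM factors. From replicate 1 to replicate 4 the WT samples read 6.81, 7.12, 7.89 and 5.49 CPM and the Mvp KO samples read 1.45, 1.44, 2.13 and 1.51 CPM, so the genotypes did not overlap. The means were 6.83 ± 1.0 CPM (SD, n = 4) and 1.63 ± 0.334 CPM (SD, n = 4), a log2 fold change of -2.06 (SE 0.186, adjusted p = 0.0162 in the quasi-likelihood test of edgeR), and the two-sided exact permutation test gave p = 0.0286, the smallest that its 70 arrangements allow. Totals ran from 28456504 to 42854368 counts per sample. WT replicate 4 stood apart from the rest, at 71.5 on a first principal component that held 46.0% of the variance, where the other samples lay between -20.4 and -2.78. It also carried the highest summed CPM of the excitatory neuron markers (3366 against 1829 to 2211 CPM in the other samples, most of it Slc17a7 at 2731 CPM) and of the interneuron markers (1762 against 824 to 1012 CPM). Of these lists 5 of 7 and 4 of 6 genes were highest in it, while Neurod6 and Vip were lowest in it. Summed striatal neuron markers were at 166 CPM in that sample against 56.97 to 81.3 CPM elsewhere, with 4 of 5 highest in it, and so were 8 of 10 immediate early genes. Summed oligodendrocyte markers were highest in Mvp KO replicates 1 and 2, at 5208 and 3529 CPM, against 1202 to 2548 CPM in WT and 1780 and 1386 CPM in the other Mvp KO samples. Summed markers of choroid plexus stayed between 4.39 and 8.67 CPM. In tissue of mixed cells, fewer cells of a type and less RNA per cell cannot be told apart, and what part any of these differences had in the values of the 44 genes was not tested.

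None of the 44 genes was called by any of the rules applied. At an adjusted p of 0.05 the quasi-likelihood test of edgeR called 0 of 44, where it called 1 of all 16914 genes tested (0.00591%), which is Mvp itself. At an unadjusted p under 0.05 it called 0 of 44, against 1.56% of all genes tested, and the Wald test of DESeq2 also gave 0 and 0. Genotypes without overlap, meaning all 4 Mvp KO samples above or below all 4 WT samples, occurred at 0 of 44 members and at 1.52% of all genes tested. With backgrounds this low, counts of 0 among 44 genes do not set the members apart from other genes. The smallest unadjusted p among the members was 0.112, at Setd1a, and the smallest adjusted p was 0.969.

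What the counts exclude is therefore the more informative reading. Each log2 fold change has a 95% interval, and a fold change outside it is excluded at that level. That interval lay wholly between a 1.2-fold fall and a 1.2-fold rise for 18 of 44 members (40.9%), against 23% of all genes tested. It lay within 1.5-fold for 40 members (90.9%), against 64.5% of all genes tested, and within 2-fold for 44 members, against 86.7%. Loss of a whole copy's worth of transcript, or its doubling, was thus outside the interval of each of the 44 genes. Under the other settings tried it was outside at 42 to 44 of them. For Adnp this covers only its 9 to 18 counts per sample, which may not measure its transcript level. The closest approach to loss of a whole copy's worth was at Kdm6b, whose lower bound was 0.506 of the WT level. The highest upper bound was 1.60-fold, at Chd2. Both limits rested on WT replicate 4: without it the lower bound of Kdm6b was 0.823 and the upper bound of Chd2 1.16-fold, and the extremes were both at Adnp, at 0.585 and 1.66-fold. For the median member a fall of more than 11.7% or a rise of more than 18.7% was excluded. The range of the members' mean CPM over all 8 samples, with Adnp at its low end, takes in 15946 of the 16914 genes tested. Of these, 23.7% lay within 1.2-fold, 66.7% within 1.5-fold and 88.9% within 2-fold. So wide a range is not matched to the level of the members, and shares near those of all genes follow from it. What part the members' higher level had in their narrower intervals was not tested.

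**Figure D1:**
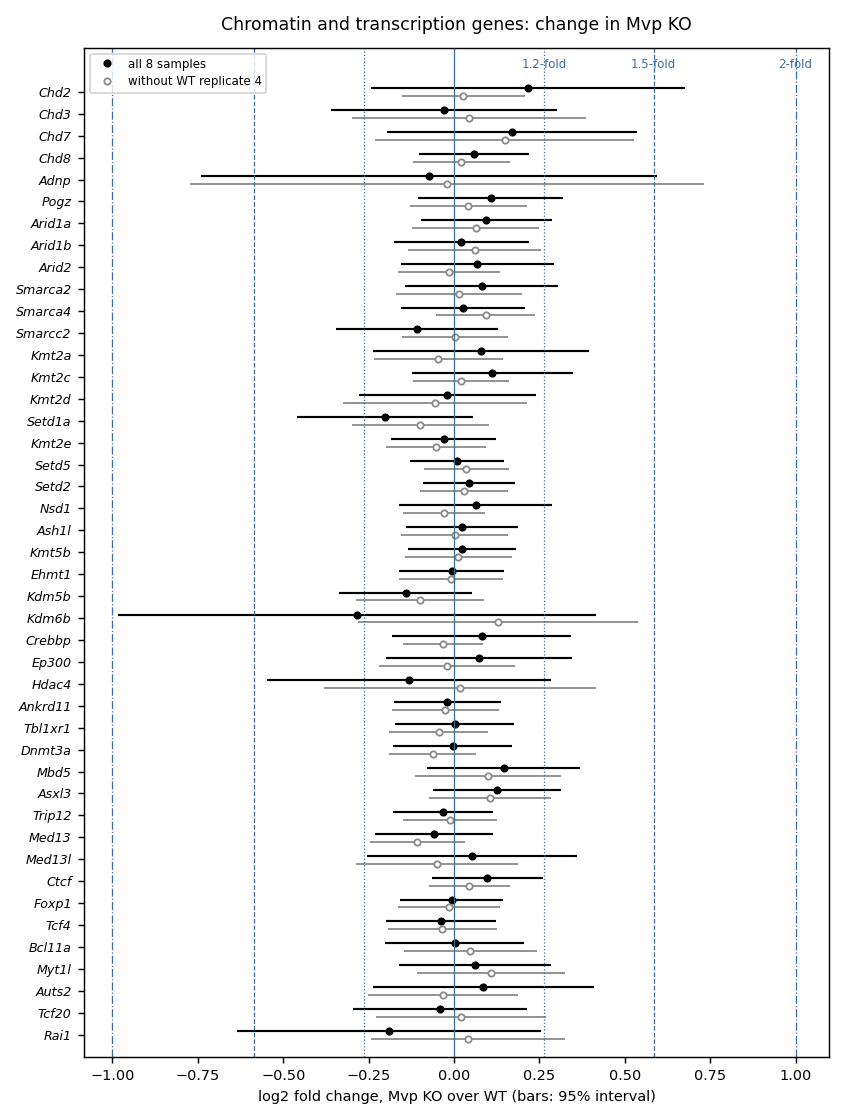
Log2 fold change of each of the 44 genes in Mvp KO over WT with its 95% interval, from all 8 samples (black) and without WT replicate 4 (grey); dotted, dashed and dash-dotted lines mark 1.2-fold, 1.5-fold and 2-fold. The black intervals of all genes but Chd2, Adnp, Kdm6b and Rai1 lie inside the 1.5-fold lines, and those of Kdm6b and Rai1 move to the right when that sample is left out.

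The point estimates scattered closely about no change. They ran from -0.28 (Kdm6b) to 0.22 (Chd2) on the log2 scale with a median of 0.023, beside a median of -2.1e-06 over all genes tested. Higher means in Mvp KO were found at 26 members and lower means at 18, a share of 59.1% higher against 50% of all genes tested. The median size of the log2 fold change, without its sign, was 0.063 for the members and 0.097 for all genes. Standard errors ran from 0.0602 (Setd2) to 0.311 (Kdm6b), with a median of 0.0968 against 0.140 over all genes tested. The biological coefficient of variation, the spread between samples of a genotype beyond counting error, had a median of 11.3% among the members and 15.4% among all genes.

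The genes are long and, all but Adnp, well counted. Their median WT level was 81.4 CPM against 17.2 CPM for all genes tested, and ranged from 0.397 CPM (Adnp) to 449 CPM (Chd3), with single counts from 9 to 17860. Per kilobase of exonic length the median was 5.96 CPM, close to the 5.31 CPM of the 14490 tested protein-coding genes, so the higher CPM goes with longer transcripts. Exonic length had a median of 13900 bases against 4526 bases for those coding genes, and 32 members (72.7%) had 10 kb or more of exonic sequence, where 9.99% of the coding genes did. From first to last base 23 members (52.3%) spanned over 100 kb, against 15.8% of the coding genes. Auts2, a nuclear regulator of neuronal genes, is the longest at 1106012 bases (mm10 chromosome 5, 131437333 to 132543344). The members lie on 19 chromosomes.

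A dense run of CpG dinucleotides is a common feature of promoters of broadly expressed regulators, and the promoter table of RefSeq (GRCm38.p6, the same coordinates as mm10) was read for it. It holds 44 windows for 33 of the 44 members, read here over the 250 bases before a start site. The median member window carried 24 CpG at 69.2% GC, against 14 CpG at 59.2% GC over the 15592 windows of tested genes and 6 CpG over all 32851 windows. Windows with at least 10 CpG made up 81.8% of the members' windows, 65.9% of those of tested genes and 37.8% of all. These bases are printed for the member with the smallest p (Setd1a), for Rai1, which stood far from its other values in WT replicate 4, and for the members with the narrowest intervals (Setd2 and Setd5), with each CpG in capitals.
Setd1a, chr7:127777139-127777388, plus strand: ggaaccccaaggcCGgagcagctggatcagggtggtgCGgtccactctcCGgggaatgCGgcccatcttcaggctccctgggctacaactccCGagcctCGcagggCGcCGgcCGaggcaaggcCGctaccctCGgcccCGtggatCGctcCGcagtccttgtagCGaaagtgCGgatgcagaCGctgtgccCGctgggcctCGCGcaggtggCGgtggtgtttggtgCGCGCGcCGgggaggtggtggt
Rai1, chr11:60104763-60105012, plus strand: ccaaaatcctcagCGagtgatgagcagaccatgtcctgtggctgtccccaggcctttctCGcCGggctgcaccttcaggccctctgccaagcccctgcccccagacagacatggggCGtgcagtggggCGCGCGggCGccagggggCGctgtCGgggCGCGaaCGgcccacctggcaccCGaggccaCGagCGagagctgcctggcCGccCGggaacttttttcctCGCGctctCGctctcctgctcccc
Setd2, chr9:110532347-110532596, plus strand: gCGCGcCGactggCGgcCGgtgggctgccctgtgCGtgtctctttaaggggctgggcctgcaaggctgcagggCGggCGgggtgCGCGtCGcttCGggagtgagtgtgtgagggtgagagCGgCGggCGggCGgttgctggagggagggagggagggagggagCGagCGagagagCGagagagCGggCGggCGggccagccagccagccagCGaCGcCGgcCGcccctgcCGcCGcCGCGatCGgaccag
Setd5, chr6:113104685-113104934, plus strand: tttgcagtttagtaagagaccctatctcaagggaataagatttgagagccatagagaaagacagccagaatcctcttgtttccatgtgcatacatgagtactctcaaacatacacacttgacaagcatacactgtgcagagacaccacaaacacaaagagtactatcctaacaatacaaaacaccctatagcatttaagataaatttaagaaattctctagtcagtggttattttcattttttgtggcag
The windows of Setd1a, Rai1 and Setd2 hold 25, 21 and 31 CpG. Setd5 holds 0, the single member window without one. The start used there lies inside the annotated gene, which begins at base 113077365. The Setd1a window also lies inside its annotated gene, which begins at base 127776670. Only the printed windows of Rai1 and Setd2 lie before the annotated start of the gene. Setd2 and Setd5 had nearly the same width of interval, but their windows differ in position as well as in CpG. Whether CpG content goes with the width of the interval was not tested.

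Among the CHD remodelers and HP1 partners, 4 of 6 genes had a higher mean in Mvp KO and the log2 fold changes ran from -0.073 to 0.22. CHD proteins are ATP-dependent remodelers, of which CHD3 is a core subunit of the deacetylase complex NuRD. Chd2, which deposits histone H3.3 at active genes, stood at 79.00, 68.9, 80.95 and 38.1 CPM in WT and at 77.4, 69.8, 83.6 and 79.4 CPM in Mvp KO, each in the order of replicates 1 to 4. WT replicate 4 was the low value here, and the other samples lay between 68.9 and 83.6 CPM. The log2 fold change was 0.22 (SE 0.204, adjusted p = 0.969 in edgeR), and without that sample it was 0.027. Of the exonic bases of Chd2, 18.4% are shared on the same strand with 1810026B05Rik, which had 4962 counts over the 8 samples, so reads from those bases cannot be assigned to either gene with certainty. Chd7, mutated in CHARGE syndrome, was at 8.404, 9.83, 8.24 and 8.19 CPM in WT and at 12.02, 11.04, 8.601 and 7.33 CPM in Mvp KO, and Mvp KO replicates 1 and 2 were its highest samples. Those are also the samples with the highest oligodendrocyte marker sums, a lineage in which Chd7 is known to act, and the part of that in the fold change of 0.17 (SE 0.163) was not tested. Chd3, the most abundant member, was at 488, 378, 416 and 514 CPM in WT and 409.5, 346, 461 and 543 CPM in Mvp KO, with both genotypes spanning nearly the same range. Chd8, a negative regulator of Wnt target genes and one of the genes most often hit in autism, differed by 0.0599 (SE 0.0717), and a fall of more than 6.77% or a rise of more than 16.6% was excluded.

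Adnp and Pogz bind HP1, the protein that reads methylated H3 in heterochromatin. Pogz was at 81.6, 73.2, 78.2 and 63.3 CPM in WT and 73.6, 74.7, 83.6 and 87.3 CPM in Mvp KO, with the lowest value in WT replicate 4 and a log2 fold change of 0.11 (SE 0.0945). Adnp was listed at only 0.295, 0.414, 0.432 and 0.445 CPM in WT and 0.225, 0.416, 0.395 and 0.491 CPM in Mvp KO, resting on 9 to 18 counts per sample. Of its exonic bases 82.1% are shared on the same strand with Gm20716, a gene with 0 counts in all samples, and how reads on shared bases were counted is not given in the sources used here, so this value may not measure the transcript level of Adnp. The part of the overlap in the low value was not tested. Its interval, 0.599 to 1.51 of the WT level, was accordingly wide.

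The BAF and PBAF remodelers, relatives of yeast SWI/SNF, use SMARCA2 or SMARCA4 as the motor and ARID1A, ARID1B or ARID2 to define the complex. Of 6 genes, 5 had a higher mean in Mvp KO, none was called, and log2 fold changes ran from -0.11 (Smarcc2) to 0.095 (Arid1a), all inside 1.5-fold. Smarcc2, a scaffold subunit, was at 216, 223, 230.4 and 293 CPM in WT and 208, 212, 230.1 and 241 CPM in Mvp KO. WT replicate 4 was again the sample apart, and the log2 fold change went from -0.11 (SE 0.106) to 0.0027 without it. Smarca2 was at 382, 353, 352 and 294 CPM in WT and 346, 332, 372 and 410.4 CPM in Mvp KO, lowest in WT replicate 4. Smarca4 showed the opposite there, with 102, 109, 109 and 126 CPM in WT and 111, 107, 112 and 123 CPM in Mvp KO, highest in WT replicate 4. Arid1a was at 69.7, 70.6, 63.03 and 61.4 CPM in WT and 78.9, 67.8, 63.1 and 72.9 CPM in Mvp KO, with a difference on the log2 scale of 0.095 (SE 0.0856) with overlapping samples. Arid1b and Arid2 differed by 0.022 (SE 0.08802) and 0.068 (SE 0.1001).

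Of the 11 histone methyltransferases and SET proteins, 7 had a higher mean in Mvp KO and 4 a lower one, and all 11 intervals lay inside 1.5-fold, 6 of them inside 1.2-fold. Setd1a, which methylates H3 at lysine 4 at promoters and is mutated in schizophrenia, had the smallest p of the members. It is on chromosome 7 of mm10 (127776670 to 127800122, plus strand), starting 762 kb beyond the end of Mvp on the same chromosome. Setd1a stood at 17.5, 17.2, 17.8 and 22.6 CPM in WT and 14.7, 15.3, 17.1 and 18.1 CPM in Mvp KO. Without WT replicate 4, the highest value, the ranges still met, since Mvp KO replicate 4 exceeded all the other WT samples. The log2 fold change was -0.20 (SE 0.115, unadjusted p = 0.112 and adjusted p = 0.969 in edgeR), and it was -0.098 without WT replicate 4. Gm49388, which had 0 counts in all samples, shares 51.8% of the exonic bases of Setd1a on the same strand, so the level may be a partial one. The data exclude a fall of Setd1a of more than 27.3%.

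Kmt2c, an enhancer methyltransferase of H3 lysine 4 mutated in a Kleefstra-like syndrome, was at 90.7, 81.1, 81.2 and 62.6 CPM in WT and 82.1, 86.6, 83.7 and 88.8 CPM in Mvp KO. Its lowest sample was WT replicate 4, and its log2 fold change fell from 0.11 (SE 0.104) to 0.0200 without that sample. Its relative Kmt2d, the Kabuki syndrome gene, differed by -0.019 (SE 0.116). Kmt2a, which methylates the same lysine at Hox and neuronal genes, differed by 0.078 (SE 0.141), with 124 CPM in WT replicate 4 against 159.7 to 203 CPM elsewhere. Setd2, the trimethylase of H3 lysine 36 in transcribed gene bodies, gave the tightest estimate of the list. It stood at 62.5, 66.5, 66.4 and 61.98 CPM in WT and 63.7, 67.99, 69.2 and 64.7 CPM in Mvp KO, all 8 samples within 62.0 to 69.2 CPM, and a fall of more than 6.12% or a rise of more than 13.2% was excluded. Setd5, a SET protein that associates with the corepressor NCoR, was at 133, 135, 138 and 145 CPM in WT and 133, 144, 142 and 136 CPM in Mvp KO. Its samples interleaved, and its bounds were 0.914 and 1.11 of the WT level. Ehmt1, the Kleefstra syndrome gene and a methylase of H3 lysine 9, was at 41.1, 40.2, 40.7 and 40.1 CPM in WT and 37.02, 39.8, 40.7 and 44.05 CPM in Mvp KO, with bounds of 0.895 and 1.11. Nsd1, the Sotos syndrome gene and a dimethylase of H3 lysine 36, differed by 0.063 (SE 0.0996), Ash1l, also a lysine 36 methylase, by 0.024 (SE 0.07304), Kmt5b, a methylase of H4 lysine 20, by 0.025 (SE 0.0704), and Kmt2e, a reader of methylated H3 lysine 4, by -0.0303 (SE 0.0689).

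Both histone demethylases had a lower mean in Mvp KO, without a call. Kdm5b removes methyl groups from H3 lysine 4. Its values were 91.2, 86.1, 85.9 and 97.5 CPM in WT and 77.7, 71.8, 87.2 and 90.4 CPM in Mvp KO, lowest in Mvp KO replicates 1 and 2 and overlapping in the others. The log2 fold change was -0.14 (SE 0.0866, unadjusted p = 0.136), and a fall of more than 20.8% was excluded. Kdm6b removes the repressive methyl groups of H3 lysine 27 and is induced by neuronal activity. It was the least precise well-counted member, at 9.997, 14.1, 9.25 and 25.9 CPM in WT and 14.5, 10.3, 10.2 and 13.6 CPM in Mvp KO. WT replicate 4 held 2.52 times the median of the other samples, which lay between 9.25 and 14.5 CPM in both genotypes. The log2 fold change was -0.28 (SE 0.311) with all samples and turned to 0.13 without WT replicate 4. Kdm6b lies on chromosome 11 of mm10 (69398508 to 69413675, minus strand).

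The acetylation and corepressor genes moved little. Crebbp and Ep300, the paired acetyltransferases mutated in Rubinstein-Taybi syndrome, differed by 0.081 (SE 0.117) and 0.074 (SE 0.121). Crebbp was at 72.1, 69.5, 69.5 and 48.4 CPM in WT and 68.4, 66.7, 70.2 and 69.4 CPM in Mvp KO, so that 7 samples sat between 66.7 and 72.1 CPM and 1 sat far below. Hdac4, a class II deacetylase held in the cytoplasm by neuronal activity, had the fifth widest interval. It was at 81.7, 56.7, 73.6 and 100.5 CPM in WT and 57.3, 62.6, 77.6 and 87.9 CPM in Mvp KO, spread about as widely in each genotype, with a log2 fold change of -0.13 (SE 0.185) and of 0.017 without WT replicate 4. Ankrd11, the KBG syndrome gene, and Tbl1xr1, a subunit of the NCoR corepressor, differed by -0.019 (SE 0.0699) and 0.0017 (SE 0.0775).

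In the group of DNA methylation, H2A deubiquitination and ubiquitin ligation, all 4 intervals lay inside 1.5-fold. Mbd5 encodes a methyl-CpG-binding-domain protein that joins the H2A deubiquitinase complex with ASXL proteins, and Asxl3 encodes one of these partners. Mbd5 was at 61.2, 54.05, 65.7 and 52.2 CPM in WT and 55.6, 63.9, 68.02 and 70.3 CPM in Mvp KO, with a difference on the log2 scale of 0.15 (SE 0.0997, unadjusted p = 0.177). Asxl3 was at 13.9, 12.3, 12.8 and 12.2 CPM in WT and 14.2, 14.01, 13.5 and 14.2 CPM in Mvp KO, with a difference on the log2 scale of 0.13 (SE 0.0832, unadjusted p = 0.165). All 4 Mvp KO values of Asxl3 exceeded 3 of the 4 WT values, but WT replicate 1 lay among them. With all samples, a fall of more than 4.18% was excluded for Asxl3 and of more than 5.29% for Mbd5. These were the tightest limits on a fall beside that of Ctcf, and WT replicate 4 was the lowest sample at each of these genes. Without it the lower bounds of Asxl3, Mbd5 and Ctcf were 0.951, 0.924 and 0.950 of the WT level, and that of Smarca4 was higher, at 0.9645. Dnmt3a, the methyltransferase that sets non-CpG methylation in neurons, differed by -0.0042 (SE 0.0777). Trip12, a HECT ubiquitin ligase, was at 262, 233, 240.0 and 258 CPM in WT and 236, 247, 249.9 and 237 CPM in Mvp KO, with interleaved samples and bounds of 0.883 and 1.08 of the WT level.

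Of the architecture genes, Ctcf, which anchors chromatin loops, was at 86.6, 85.8, 89.4 and 73.8 CPM in WT and 86.6, 90.5, 89.2 and 92.9 CPM in Mvp KO. WT replicate 4 was the low sample, and the log2 fold change of 0.098 (SE 0.0726, unadjusted p = 0.209) became 0.044 without it. A fall of Ctcf by more than 4.41% was excluded. Med13 and Med13l, alternative subunits that link Mediator to its kinase module, differed by -0.059 (SE 0.0764) and 0.052 (SE 0.136).

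Among the 7 transcription factors and other nuclear regulators, 3 had a higher and 4 a lower mean in Mvp KO. Foxp1, a forkhead repressor of cortical projection neurons, was at 86.1, 93.2, 96.5 and 89.3 CPM in WT and 84.6, 89.3, 95.5 and 94.1 CPM in Mvp KO, with bounds of 0.897 and 1.105 of the WT level. Rai1, the Smith-Magenis syndrome gene and a homeostatic regulator of activity-dependent genes, was at 41.5, 41.5, 35.9 and 67.2 CPM in WT and 39.3, 34.3, 38.7 and 50.8 CPM in Mvp KO. WT replicate 4 held 1.71 times the median of the other samples, and the log2 fold change went from -0.19 (SE 0.198) to 0.041 without it. Myt1l, a repressor of non-neuronal genes that is high per length, was at 238, 232, 275 and 279 CPM in WT and 227, 276, 292 and 274 CPM in Mvp KO. Auts2 was at 56.2, 47.8, 48.5 and 34.3 CPM in WT and 45.6, 44.2, 52.2 and 56.3 CPM in Mvp KO, and the genotypes of both genes overlapped over most of their range. Tcf4, the Pitt-Hopkins syndrome gene, differed by -0.039 (SE 0.0719), Bcl11a, a zinc finger repressor of cortical development, by 0.0019 (SE 0.0906), and Tcf20, a nuclear coregulator related to Rai1, by -0.041 (SE 0.114).

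**Figure D2:**
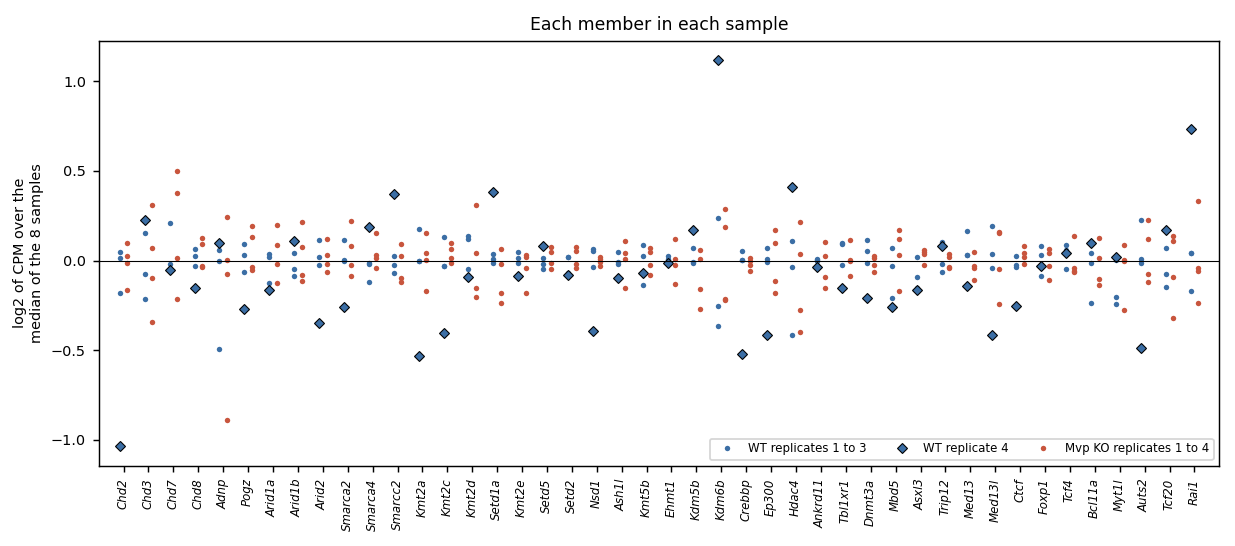
Log2 of each gene's CPM in each sample over its own median of the 8 samples, for the 44 genes in order of role; blue marks WT (replicate 4 as a diamond), red marks Mvp KO. The diamonds of Kdm6b (25.9 CPM) and Rai1 (67.2 CPM) lie far above and that of Chd2 (38.1 CPM) far below, while most of the other points stay close to 0.

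WT replicate 4 was thus the sample in which the members varied most. It lay outside the range of the other samples at 29 of the 44 genes (65.9%), against 61.7% of all genes tested, highest at 9 and lowest at 20. Its distance from the others' median reached 1.2-fold at 19 members and at 54.7% of all genes, and it reached 1.5-fold at 3 members (Kdm6b, Rai1 and Chd2) and at 24.5% of all genes. Leaving it out gave intervals within 1.2-fold at 30 members, against 38.7% of all genes tested, within 1.5-fold at 43 members, against 71.4%, and within 2-fold at 44, against 88.7%. The exception to 1.5-fold was then Adnp. Its omission changed the sign of 14 members and took the median log2 fold change from 0.023 to 0.0075, and no member passed an unadjusted p of 0.05.

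Mvp KO samples 1 and 4 were the other extremes. Mvp KO replicate 4 was the highest sample at 15 members, and Mvp KO replicate 1 was the lowest at 13. No share of all genes tested is given here for such counts, so they are not read as particular to the members. The median ratio of a member to its median in the other samples was 1.08 in Mvp KO replicate 4, 0.940 in Mvp KO replicate 1 and 0.932 in WT replicate 4, where the same medians over all genes tested were 0.9967, 1.005 and 0.9745. For the 1416 tested coding genes outside the list with at least 10 kb of exonic sequence they were 1.02, 0.957 and 0.993. Summed over the 44 genes the level by replicate was 5094, 4833, 4960 and 4828 CPM for WT and 4678, 4777, 5110 and 5297 CPM for Mvp KO. The lowest and the highest sums were both in Mvp KO, and the WT sums lay between them. The low sums fell in Mvp KO replicates 1 and 2, which had the highest oligodendrocyte marker sums, and the part of the tissue's make-up in this was not tested.

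**Figure D3:**
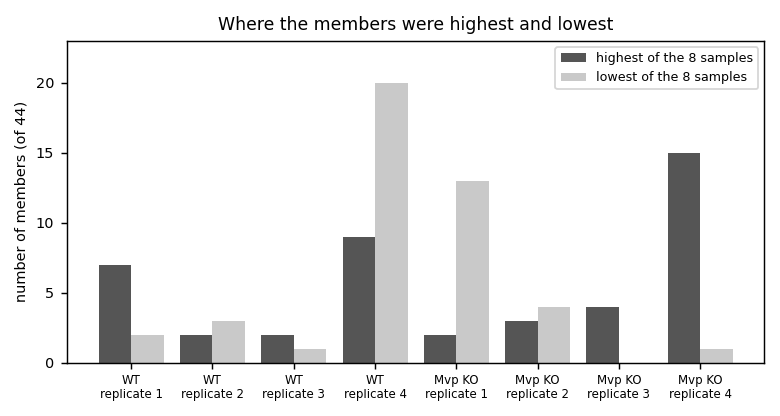
Number of the 44 genes at which each of the 8 samples was the highest (dark bars) or the lowest (light bars). WT replicate 4 was the lowest sample at 20 genes and the highest at 9, Mvp KO replicate 4 was the highest at 15, and Mvp KO replicate 1 was the lowest at 13. No share of all genes tested stands beside these counts.

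Compared per kilobase of exonic length, the members kept their order in both genotypes at the top. In WT, Chd3 was highest at 53.2 ± 7.43 CPM per kilobase, followed by Smarcc2 at 43.3 ± 6.36, Smarca2 at 24.2 ± 2.59, Myt1l at 18.2 ± 1.73 and Ctcf at 17.3 ± 1.42 CPM per kilobase (means ± SD, n = 4). Smarca4, next at 17.2 ± 1.57 CPM per kilobase, did not differ from Ctcf beyond the spread between samples. At the other end were Kdm6b at 2.13 ± 1.103, Auts2 at 2.04 ± 0.399, Asxl3 at 0.825 ± 0.05002 and Chd7 at 0.629 ± 0.0568 CPM per kilobase. Adnp, at 0.0741 ± 0.0129 CPM per kilobase, was last, with most of its exonic bases shared with another gene. The spreads of Kdm6b and Auts2 overlapped, and so their order is not resolved.

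**Figure D4:**
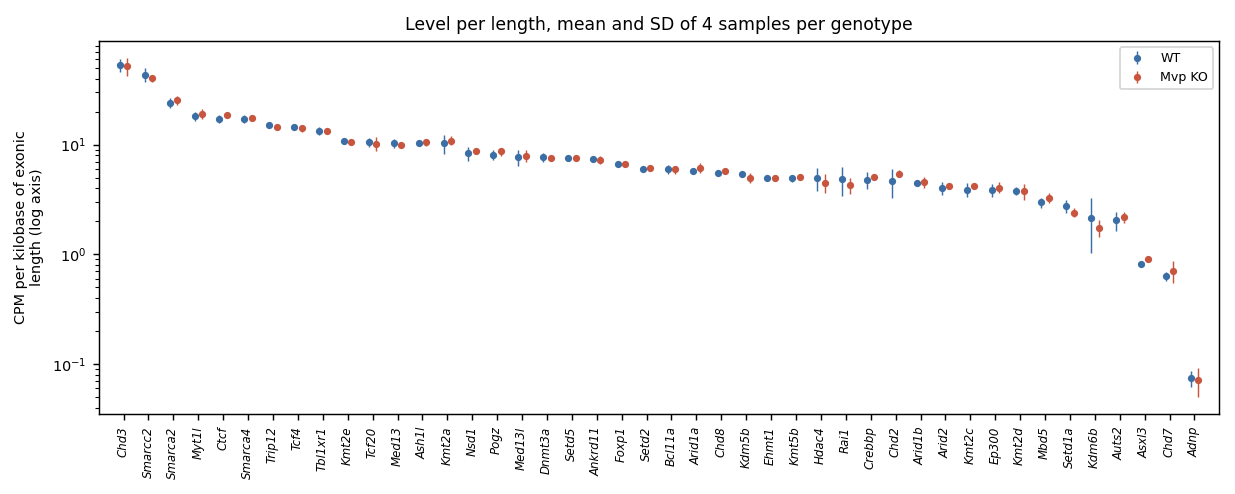
Level of each of the 44 genes per kilobase of exonic length on a log axis, as mean and SD of 4 WT (blue) and 4 Mvp KO (red) samples, ordered by the WT mean. The means of the genotypes nearly coincide from Chd3 (53.2 CPM per kilobase in WT) to Chd7 (0.629), and the longest bar among the well-counted genes is that of Kdm6b in WT.

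Related members can stand in for each other, so their ratio within a sample was compared. Smarca2 exceeded Smarca4 per kilobase 1.41-fold in WT and 1.46-fold in Mvp KO. The log2 ratios of this pair by replicate were 0.77, 0.55, 0.56 and 0.087 for WT and 0.50, 0.49, 0.59 and 0.60 for Mvp KO. WT replicate 4 was the sample with the most even use of the pair, and the other WT values were close to those of Mvp KO. Arid1a exceeded Arid1b 1.29-fold in WT and 1.36-fold in Mvp KO, with log2 ratios of 0.54, 0.43, 0.35 and 0.16 against 0.75, 0.49, 0.24 and 0.30. Crebbp exceeded Ep300 1.24-fold and 1.26-fold, with log2 ratios of 0.32, 0.35, 0.33 and 0.23 against 0.43, 0.46, 0.26 and 0.17. Both pairs varied more among Mvp KO samples than the difference between genotypes. Med13 exceeded Med13l 1.36-fold and 1.25-fold, with log2 ratios of 0.34, 0.44, 0.35 and 0.63 against 0.50, 0.37, 0.25 and 0.18. Kmt2c and Kmt2d were near equal, at ratios of 1.02 and 1.13, with log2 values of 0.13, -0.011, 0.16 and -0.18 against 0.33, 0.35, 0.11 and -0.070. The widest difference between genotypes in log2 ratio, 0.15, was in this pair, and its samples overlapped. Kmt2e exceeded Setd5 1.43-fold and 1.39-fold, with log2 ratios of 0.57, 0.60, 0.54 and 0.37 against 0.40, 0.42, 0.52 and 0.57. Chd7 was 0.115 of Chd8 in WT and 0.122 in Mvp KO, with log2 ratios of -3.22, -2.93, -3.28 and -3.07 against -2.64, -2.76, -3.25 and -3.51. In none of the 7 pairs did the genotypes separate.

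**Figure D5:**
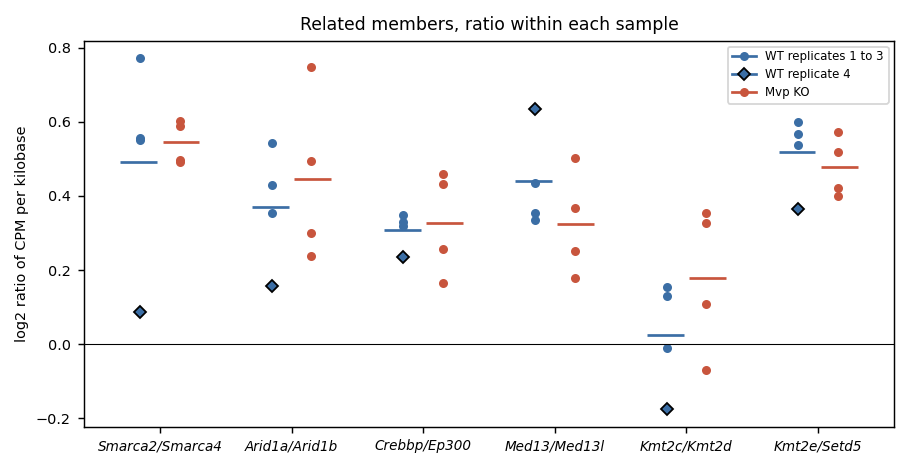
Log2 ratio of CPM per kilobase within each sample for 6 pairs of related members, with bars at the mean of each genotype (blue WT with replicate 4 as a diamond, red Mvp KO); Chd7 over Chd8, near -3, is off this scale and not drawn. The samples of the genotypes overlap in each pair, and WT replicate 4 is at an end of the WT values in each.

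The members work in complexes, and 123 further subunits and relatives outside the list were examined in the same fit. All 123 were tested, 0 passed the adjusted threshold, and 1 had an unadjusted p under 0.05 (0.813%, beside the background of 1.56%). That gene was Uhrf1, which brings DNMT1 to hemimethylated DNA, and it was barely detected, at 0.383, 0.622, 0.519 and 0.254 CPM in WT and 0.873, 0.749, 0.552 and 0.772 CPM in Mvp KO. Its log2 fold change was 0.71 (SE 0.300, unadjusted p = 0.0418, adjusted p = 0.969 in edgeR), and the WT replicate 2 value exceeded that of Mvp KO replicate 3. One gene had genotypes without overlap, Tcf3, an E protein related to TCF4, at 15.5, 14.9, 15.7 and 11.1 CPM in WT and 16.8, 16.2, 16.0 and 18.2 CPM in Mvp KO (log2 fold change 0.23, SE 0.121, unadjusted p = 0.0822). The gap between its nearest samples, 15.7 and 16.0 CPM, was small. Intervals within 1.5-fold were found at 110 partners (89.4%), against 64.5% of all genes tested, and within 2-fold at 121, against 86.7%. What part the level of the partners had in these shares was not tested. The median log2 fold change was 0.018, and the range ran from -0.34 to 0.71.

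By complex, no list held a gene past the adjusted threshold, and beside Uhrf1 and Tcf3 none held a gene at an unadjusted p under 0.05 or without overlap. The counts inside 1.5-fold that follow stand beside 64.5% of all genes tested, and the part of gene level in them was not tested. The 20 further BAF and PBAF subunits had a median log2 fold change of 0.014, with 19 inside 1.5-fold. The 19 genes of the CHD family, NuRD and HP1 had a median of 0.016, with 19 inside 1.5-fold, and the 13 genes of H3 lysine 4 methyltransferase complexes a median of -0.0060, with 13 inside. The 12 Mediator genes were at -0.017, the 9 cohesin genes at 0.021 and the 8 genes of NCoR and class II deacetylases at 0.062, with all of them inside 1.5-fold. The 21 other histone methyltransferases and demethylases were at 0.033, with 19 inside. Less was excluded for the 11 genes of DNA methylation and BAP1, with 7 inside 1.5-fold, and for the 10 related transcription factors, with 4 inside and a median of 0.19.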

How the data were processed

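Cingulate cortex RNA of 8 samples from male mice (4 WT, 4 Mvp KO) was made into stranded polyA libraries and sequenced as single 50-base reads. The authors trimmed reads with cutadapt 1.10, removed ribosomal reads with Bowtie2 2.2.8, aligned to mm10 with STAR 2.5.3a and counted genes of Ensembl release 91 with HTSeq 0.6.1p1, per the study's methods and the labels. The strand and overlap settings of the counting are not given in the sources used here. The deposited values are raw counts per gene.

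Genes were kept by filterByExpr (16914 of 53379), scaled by TMM factors and tested with the quasi-likelihood test of edgeR 4.0.16 (R 4.3.3, robust, genotype as the single term), with Benjamini-Hochberg adjustment over all genes tested. The standard error is the absolute log2 fold change over the square root of F, and t quantiles at the fit's total degrees of freedom give the 95% interval. Alternatives used DESeq2 1.42.0, limma 3.58.1 and sva 3.50.0, other filters, a replicate block, and each sample left out in turn. Gene positions and lengths are from GENCODE vM21, and symbols were matched through that annotation. Depth of 28456504 to 42854368 counts per sample sets the counting error. The rest depends on the spread between samples and on their number.

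Members and lists were chosen with earlier results of these data known. Values per sample are given for the 10 members with the smallest p, the 5 narrowest and 5 widest intervals, the 5 highest and lowest per length, and those at which WT replicate 4 lay 1.5-fold or more from the median of the other samples. No samples were left out, and pairs of samples in a genotype differed by chi-square values of 7.00 to 95.6 per gene, beyond sampling noise.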

Additional observations from a re-analysis of the deposited data

Results flagged for a closer look

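In 4 of the 88 sets of 4 samples (44 genes in each genotype) 1 sample lay far from the other samples by the Dixon criterion at its 95% critical value, and chance alone would give about 4.4 such sets. Chd7 was at 9.83 CPM in WT replicate 2, with the other WT samples between 8.19 and 8.40 CPM. Setd1a was at 22.6 CPM in WT replicate 4, with the rest of WT between 17.2 and 17.8 CPM. Crebbp was at 48.4 CPM in WT replicate 4, against 69.5 to 72.1 CPM. Tcf4 was at 427 CPM in Mvp KO replicate 2, against 371 to 376 CPM in the other Mvp KO samples. WT replicate 4 accounted for 2 of the 4, and no cause was tested.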

How the results depend on the processing

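No alternative gave a member past the adjusted threshold. The count of members with intervals within 1.2-fold, 18 in the fit as reported, was 34 with limma voom and sample quality weights, 29 with 1 surrogate variable, 11 with 99% intervals and 15 to 30 when 1 sample was left out, with 30 being the fit without WT replicate 4. The share of all genes tested rose too, from 23% to 45.3% with limma voom, 39.4% with the surrogate variable and 38.7% without WT replicate 4. With 1 sample left out, 13.8% to 38.7% of all genes tested lay within 1.2-fold. Members within 1.5-fold numbered 38 to 43, and within 2-fold 42 to 44. The share of all genes tested within 1.5-fold ran from 35.5% without a filter to 77.2% with limma voom. Within 2-fold it ran from 47.8% to 93.2% in the same fits. No share of all genes is given here for the 99% intervals. Leaving out 1 sample gave 0 to 1 members at an unadjusted p under 0.05, which was Mbd5 without Mvp KO replicate 1 (adjusted p = 0.997 in edgeR, with 1.5% of all genes called in that fit), and 0 to 2 members without overlap. These were Kmt2c and Asxl3 without WT replicate 1, Ctcf without Mvp KO replicate 1, Asxl3 without Mvp KO replicate 3 and Setd1a without Mvp KO replicate 4. Genotypes did not overlap at 2.82% to 4.23% of all genes tested in these fits, since fewer samples make such separation easier by construction.

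Of 703 values of single members under the alternatives, 14 moved by more than that member's standard error in the fit as reported. They were at Smarcc2, Setd1a, Kdm5b, Kdm6b, Crebbp, Hdac4, Tcf20 and Rai1. Each came from a fit that left out or reweighted samples or added the surrogate variable. The sign of the log2 fold change turned in at least 1 setting at 28 members and in none at 16, so the signs given for single members are estimates without a call. With 10 counts required in every sample, Adnp was not tested. The deviations of same-numbered samples from their genotype means correlated at 0.0548, 0.287, -0.00671 and 0.0507. Without such values for differently numbered samples, these cannot decide whether replicate numbers pair the samples. A replicate block gave 19 members within 1.2-fold, 41 within 1.5-fold and 44 within 2-fold, against 22.1%, 65.3% and 87.1% of all genes tested. In that fit the members' median log2 fold change was 0.020. It gave 0 members at an unadjusted p under 0.05, against 1.94% of all genes tested. The cause of these shifts was not tested. The fits cannot exclude changes smaller than the intervals or changes confined to 1 cell type.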
